A study of Sus scrofa with 24 samples.

Results

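The genes described are STC1 (ENSSSCG00000009642), STC2 (ENSSSCG00000016983) and PENK (ENSSSCG00000006243), 3 of the 25462 genes in the table of pig transcript levels. They were taken as a list of secreted peptide genes, the stanniocalcins 1 and 2 and proenkephalin. All 3 were among the 16135 genes whose values, summed over the libraries, exceeded 1 FPKM and which were therefore tested. STC1 was chosen by its rise from IMF-4d to IMF-8d and PENK by its excess in IMF-8d over BF-8d, and the values by which STC2 was chosen are not recorded. Comparisons that hold any library of those 2 pairs of groups are therefore given for STC1 or PENK, respectively, as descriptions without a p-value, and so is every comparison of STC2.

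The cells were primary preadipocytes, the fibroblast-like precursors of fat cells, of Yorkshire piglets 6 days old. They came from subcutaneous back fat (BF) or, as intramuscular preadipocytes (IMF), from digested longissimus dorsi muscle, and polyadenylated RNA was sequenced on days 0, 2, 4 and 8 of culture in 3 replicates, which gives 8 groups (BF-0d to IMF-8d) and 24 libraries. Day 0 cells had received no inducer. The later cells of both depots had received IBMX, a phosphodiesterase inhibitor that raises cAMP, with the glucocorticoid dexamethasone and insulin for 2 days, then insulin alone for 2 days, then growth medium. The study used 3 piglets, but the labels do not tie a replicate to an animal, so that p-values measure the spread between these libraries, which may be technical. All cells were primary cultures grown from digested tissue, not sorted cells.

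Stanniocalcins are secreted glycoproteins first known from fish, in which they limit the uptake of calcium. In mammals they act mostly near the cells that release them, and both block the pappalysins, proteases that free insulin-like growth factors from their binding proteins. STC1 is a known target of the hypoxia-inducible factor, and STC2 of the endoplasmic reticulum stress factor ATF4. Proenkephalin is a precursor protein that is cut at pairs of basic residues into enkephalins, short opioid peptides, and its gene is a classic target of cAMP signalling. It is best known from neurons and the adrenal medulla, and connective tissue cells transcribe it as well.

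In the RefSeq annotation of Sscrofa11.1, the build to which the reads had been aligned, STC1 lies on the minus strand of chromosome 14 (chr14:7952175-7961365) with 4 exons and a reading frame of 247 codons. STC2 lies on the plus strand of chromosome 16 (chr16:50989676-51001412), also with 4 exons, and its frame has 301 codons. PENK lies on the plus strand of chromosome 4 (chr4:75525497-75530403), with 3 exons, of which 2 are coding, and 266 codons. No other RefSeq gene overlapped any of the 3. The coding sequence of PENK held 7 enkephalin units, 6 of Met-enkephalin and 1 of Leu-enkephalin, all in the second coding exon. Each was preceded by 2 codons for basic residues, and 5 were also followed by 2. Units 1, 6 and 7 are shown as examples of the repeat: the first, the Leu-enkephalin unit and the last, which lacks a basic pair after it. Units are named by the 5 residues they encode, and which peptides are released was not measured. Capitals mark the 5 codons of the peptide. The encoded Met- and Leu-enkephalin differ in the last residue only, while synonymous codons also vary between units.
unit 1, Met-enkephalin, chr4:75529504-75529530, plus strand: aagaagTACGGGGGCTTCATGaagagg
unit 6, Leu-enkephalin, chr4:75529891-75529917, plus strand: aaaaggTACGGTGGCTTCCTCaagcgc
unit 7, Met-enkephalin, chr4:75529984-75530010, plus strand: aaaagaTATGGCGGATTTATGagattc

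The 250 bases before the annotated start of each gene were searched on both strands for the cAMP response element TGACGTCA, for TGCGTCA, the core of the enkephalin element CRE-2, and for the AP-1 site TGACTCA. PENK held 1 match, to TGCGTCA, 33 bases before the start. It is shown because the induction medium contained an agent that raises cAMP, with the match in capitals.
PENK, chr4:75525454-75525480, plus strand: gcgtagggccTGCGTCAgcgacagccc
Of the same windows of 19559 protein-coding genes, 1.82% held TGCGTCA, 1.7% TGACGTCA and 2.9% TGACTCA. The windows of STC1 and STC2 held none of the 3 sequences. Their annotated starts lay only 26 and 20 bases before the start codon. A match is a run of letters and was not measured as a binding site.

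The values are FPKM, in which fragment numbers are divided by transcript length and by the mapped fragments of a library. This makes levels of different genes comparable per length. They carry no read counts per gene, and the read totals that the study lists for its libraries were not used here, so no counting interval is given. A library summed to between 307967 and 385768 FPKM. BF-2d replicate 3 stood apart from the other BF-2d libraries, at -17.2 on the first principal component against 26.5 and 27.2, and the members' tested differences that rest on BF-2d are given with and without it. The 5 stromal markers in the table, such as COL1A1 and DCN, summed to between 1835 and 7590 FPKM per library. Of 8 adipocyte markers, ADIPOQ was listed at 0 in every IMF library and never exceeded 0.230 FPKM, LEP was listed at 0 in 22 libraries, and LPL carried most of the sum of the list on day 8, so the labelled adipocytes lacked some defining markers. The study stained lipid with Oil Red O and reported that droplets accumulated in cells of both depots, fewer of them in IMF. Of 8 muscle lineage markers, MYOD1, MYF5 and MYMK were listed at 0 in all libraries, and DES, an intermediate filament gene of muscle that other contractile cells also use, had a mean of 37 FPKM in IMF-0d and 11.7 FPKM in IMF-4d and was higher in IMF on all 4 days. Of 8 immune markers, CD3E and LYZ were listed at 0 in all libraries, and CD14 had group means of 2.97 to 8.45 FPKM.

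STC1, the calcium-linked stanniocalcin, went from nearly absent to one of the more abundant transcripts, and at different times in the depots. On day 0 its levels were 0.053, 0.0192 and 0.0191 FPKM in BF and 0.139, 0.0996 and 0.0668 FPKM in IMF. On day 2 the BF libraries stood at 84.2, 62.2 and 3.19 FPKM, and the IMF libraries at 0.226, 0.893 and 0.0905 FPKM. BF cells thus had STC1 far above their day 0 level in all 3 libraries, with BF-2d replicate 3 the lowest by a wide margin, and the day 2 libraries of the depots did not overlap. On day 4 the levels were 114, 174 and 337 FPKM in BF, against 0.115, 0.11 and 0.709 FPKM in IMF. On day 8 they were 159, 98.5 and 142 FPKM in BF and 224, 288 and 193 FPKM in IMF. Every IMF-8d library therefore exceeded every BF-8d library, although no IMF library of the earlier days had reached 1 FPKM. Within single libraries, STC1 ranked between 142 and 361 among all genes by FPKM in BF-4d, and between 171 and 269 in IMF-8d.

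Ordered by group mean, STC1 stood at 235 ± 48.4 FPKM in IMF-8d, 208 ± 116 in BF-4d, 133 ± 31.3 in BF-8d and 49.9 ± 41.9 in BF-2d (SD, n = 3). The remaining groups followed at 0.403 ± 0.430 in IMF-2d, 0.312 ± 0.344 in IMF-4d, 0.102 ± 0.0362 in IMF-0d and 0.0305 ± 0.0196 in BF-0d (SD, n = 3). IMF-8d and BF-4d overlapped, as did BF-4d and BF-8d, and so did the 3 earlier IMF groups, whereas BF-2d lay apart from its neighbours on both sides.

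**Figure D1:**
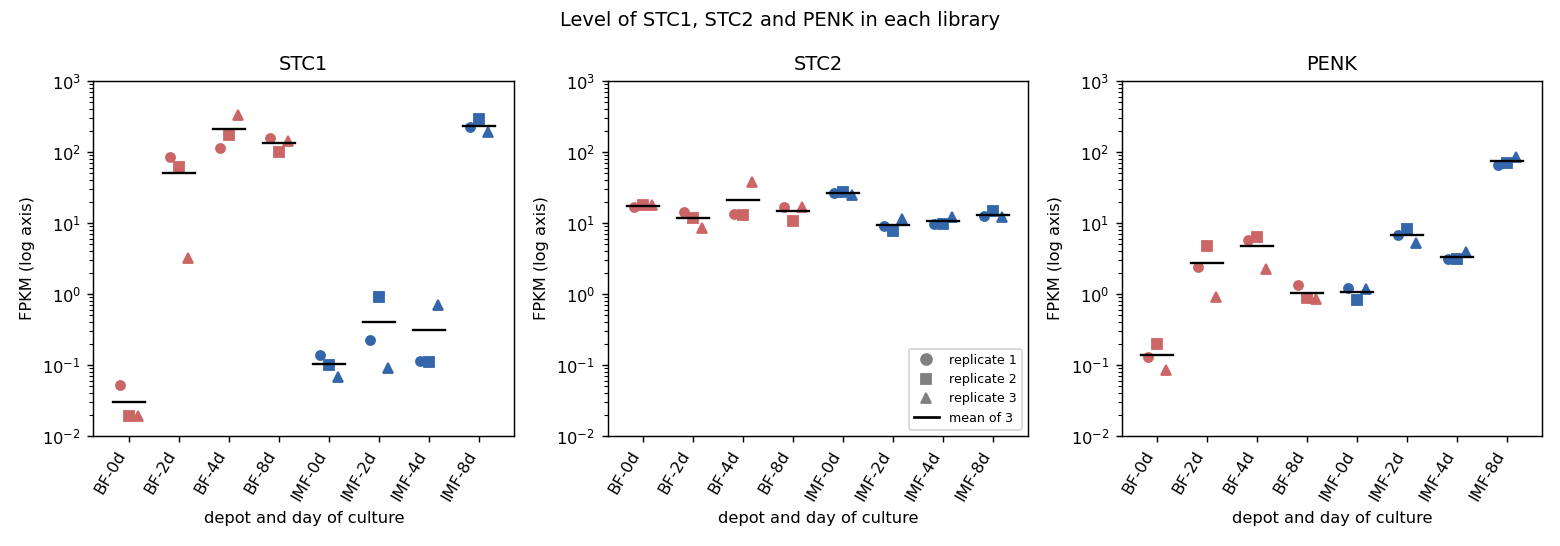
FPKM of STC1, STC2 and PENK on a log axis in each of the 24 libraries, by depot and day (red BF, blue IMF). Marker shapes give the replicate and bars the mean of 3. STC1 lies above 90 FPKM in BF-4d, BF-8d and IMF-8d and below 1 FPKM in the other IMF groups, STC2 stays between 7.68 and 37.6 FPKM, and PENK lies above 60 FPKM only in IMF-8d.

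Comparisons were made as differences of log2(FPKM + 1), later minus earlier day or IMF minus BF, in a limma model of all 24 libraries. Called genes are those with an absolute difference of at least 1 and, after Benjamini-Hochberg adjustment over all tested genes, a p under 0.01. On this scale changes at low levels appear smaller than they are as ratios. The spread of a gene is estimated over all groups together, so the SE of 0.70 for STC1 does not measure the compared groups alone. The SD of log2(FPKM + 1) of STC1 was 2.39 in BF-2d, 0.027 in BF-0d and 0.047 in IMF-0d. STC1 rose from BF-0d to BF-2d by 4.78 (SE 0.70, limma adjusted p = 4.3e-05), in a comparison in which 6.59% of tested genes were called. Without BF-2d replicate 3 the rise was 6.15. From BF-2d to BF-4d it rose by a further 2.74 (SE 0.70, adjusted p = 0.00837, 3.35% of tested genes called), of which 1.37 remained without that library (adjusted p = 0.00856). From BF-4d to BF-8d the difference was -0.52 (SE 0.70, adjusted p = 0.666), where 2.93% of tested genes were called. Both rises passed the test, the change over the last interval did not, and the call of the second rise was lost in 17 of the 24 fits that left out 1 library. With only the compared groups fitted neither rise was called (adjusted p = 0.0303 and 0.25), and the second was not called with no filter (0.0144), a pseudocount of 0.1 (0.0178) or a replicate block (0.0111).

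In IMF cells the difference in STC1 from day 0 to day 2 was 0.31 (SE 0.70, adjusted p = 0.882), and 0.787% of tested genes were called there. The change over these days differed between depots, with an interaction of -4.47 (SE 0.98, adjusted p = 0.00718, 2.45% of tested genes called). It was -5.85 without BF-2d replicate 3. The call was lost in 13 of the 24 fits that left out 1 library, with a replicate block (adjusted p = 0.0103), with no filter (0.0122) and with only the compared groups fitted (0.0422). Over all tested genes the number called in it, 395, was 1183 without BF-2d replicate 3 and 193 without IMF-0d replicate 3. As descriptions, STC1 differed by -0.09 from IMF-2d to IMF-4d and by 7.50 from IMF-4d to IMF-8d, the rise that had singled it out, where 0.0372% and 7.25% of tested genes were called. Between depots the difference was 0.10 on day 0 (SE 0.70, adjusted p = 0.976, 2.58% of tested genes called), although the IMF-0d libraries all lay above the BF-0d libraries, both at under 0.14 FPKM. On day 2 STC1 was lower in IMF by -4.37 (SE 0.70, adjusted p = 0.000189, 4.74% of tested genes called), or -5.75 without BF-2d replicate 3. The descriptive differences were -7.20 on day 4 and 0.82 on day 8, with 11.3% and 6.96% of tested genes called.

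Some cell type markers moved along the same days. The summed adipocyte markers were 9.16 to 10.9 FPKM in BF-0d, 23.1 to 93.4 in BF-2d, 182 to 318 in BF-4d and 281 to 622 in BF-8d, and in IMF they went from 2.79 to 3.67 FPKM on day 0 to between 97.2 and 143 on day 8. The rise of the sum was mostly that of LPL, lipoprotein lipase, with means of 2.22 FPKM in BF-0d and 422 FPKM in BF-8d, whereas PPARG, the master factor of adipogenesis, had means of 3.0 and 0.973 FPKM in those groups, and 2 of the 5 tested markers rose and 1, FABP4, fell from BF-0d to BF-2d. The summed smooth muscle and pericyte markers ran the other way, from 1589 to 1679 FPKM in BF-0d to between 20 and 37.4 in BF-8d, and from 1780 to 2231 in IMF-0d to between 271 and 293 in IMF-8d. Nearly all of that sum on day 0 was ACTA2, and RGS5, a pericyte marker of the same list, was instead high with STC1 in BF-4d, at a mean of 32.6 FPKM, and with STC1 and PENK in IMF-8d, at 69.6 FPKM, but not in BF-8d, at 3.43 FPKM, or BF-2d, at 2.0 FPKM. RGS5 rose by 3.38 from BF-2d to BF-4d (adjusted p = 6.93e-05) and by 3.60 from IMF-4d to IMF-8d (adjusted p = 7.73e-06). The call from BF-2d to BF-4d was not kept with only the compared groups fitted. In BF-2d replicate 3, ACTA2 stood at 588 FPKM against 61.2 and 102 in the other BF-2d libraries. Their part in the differences of STC1 and PENK was not tested. In RNA from whole cultures, fewer cells of a type and less RNA per cell cannot be told apart.

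STC2, the other stanniocalcin of mammals, was transcribed in every library and varied over a narrow range. In BF it stood at 16.8, 17.7 and 18.2 FPKM on day 0 and at 14.4, 11.8 and 8.57 FPKM on day 2. The BF-4d libraries held 13.5, 12.9 and 37.6 FPKM and the BF-8d libraries 16.7, 10.6 and 17 FPKM. Replicate 3 of BF-4d, at 37.6 FPKM, was the highest of all 24 libraries and set the SD of its group. In IMF the levels were 26.1, 27.4 and 25.1 FPKM on day 0, 9.09, 7.68 and 11.3 on day 2, 9.65, 9.83 and 12.2 on day 4, and 12.5, 14.7 and 12.1 on day 8. IMF-0d thus held more STC2 than any later IMF library.

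In the order of group means, STC2 went from 26.2 ± 1.15 FPKM in IMF-0d through 21.3 ± 14.1 in BF-4d, 17.6 ± 0.692 in BF-0d, 14.7 ± 3.60 in BF-8d, 13.1 ± 1.41 in IMF-8d, 11.6 ± 2.92 in BF-2d and 10.6 ± 1.41 in IMF-4d to 9.37 ± 1.85 in IMF-2d (SD, n = 3). Every group overlapped its neighbour in that order. As descriptions, STC2 differed by -1.40 (SE 0.27) from IMF-0d to IMF-2d, the 36th most negative difference of the 16135 tested genes there, and its libraries did not overlap. From BF-0d to BF-2d it differed by -0.59, or -0.40 without BF-2d replicate 3. The other intervals gave differences between -0.36 and 0.68, and the largest of these, from BF-2d to BF-4d, was 0.20 without BF-4d replicate 3. Between depots STC2 differed by 0.55 on day 0 and by -0.79 on day 4, both with libraries that did not overlap, and by -0.27 on day 2 (-0.45 without BF-2d replicate 3) and -0.13 on day 8. Without BF-4d replicate 3 the difference on day 4 was -0.31. That library also held HSPA5, the endoplasmic reticulum chaperone BiP, at 2249 FPKM against 351 and 350 in the other BF-4d libraries, a gene picked after its values were seen.

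Set against each other within libraries, the stanniocalcins exchanged places. In the 6 day 0 libraries STC2 was at 16.8 to 27.4 FPKM and STC1 at under 0.14 FPKM, too low for a ratio of stated precision. In BF-2d the ratio of STC1 to STC2 was 5.85, 5.27 and 0.372, in BF-4d it lay between 8.39 and 13.5, and in BF-8d between 8.38 and 9.56. IMF-2d and IMF-4d libraries kept STC2 as the higher transcript, with STC1 under 0.9 FPKM, and in IMF-8d STC1 exceeded STC2 by 16 to 19.6 times. The sum of both genes was 16.9 to 18.2 FPKM in BF-0d and 205 to 302 FPKM in IMF-8d. Over the 24 libraries the Pearson correlation of their log2(FPKM + 1) was 0.06, a description in which the points share 8 groups.

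PENK, the enkephalin precursor shown above by its repeat, was low at the start, moderate during induction and high in 1 group. Its levels on day 0 were 0.131, 0.198 and 0.0847 FPKM in BF and 1.22, 0.816 and 1.17 FPKM in IMF. Day 2 gave 2.43, 4.81 and 0.916 FPKM in BF and 6.78, 8.35 and 5.23 FPKM in IMF. Each IMF library was above each BF library on both days, and BF-2d replicate 3 was again the lowest of its group. On day 4 PENK stood at 5.79, 6.31 and 2.25 FPKM in BF and at 3.14, 3.09 and 3.86 FPKM in IMF, so that the depots overlapped. On day 8 BF cells held 1.32, 0.892 and 0.85 FPKM, and IMF cells 66.4, 70.3 and 84.2 FPKM. In the IMF-8d libraries PENK ranked between 580 and 744 among all genes, and no library outside that group reached 9 FPKM.

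By group mean, PENK ran from 73.7 ± 9.37 FPKM in IMF-8d to 6.79 ± 1.56 in IMF-2d, 4.78 ± 2.21 in BF-4d, 3.36 ± 0.431 in IMF-4d, 2.72 ± 1.96 in BF-2d, 1.07 ± 0.22 in IMF-0d, 1.02 ± 0.263 in BF-8d and 0.138 ± 0.0572 in BF-0d (SD, n = 3). IMF-8d and BF-0d lay apart from their neighbours, and the groups between them overlapped one after the other.

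Both depots showed a rise of PENK over the first 2 days, by 1.57 in BF (SE 0.30, limma adjusted p = 0.000473) and by 1.90 in IMF (SE 0.30, adjusted p = 0.000423). The rise in IMF was the 15th largest of the 16135 tested genes in that comparison. Without BF-2d replicate 3 the rise in BF was 1.97. The interaction over these days was 0.33 (SE 0.42, adjusted p = 0.652), and -0.08 without that library, so a difference between depots in the rise was not detectable here. From day 2 to day 4 PENK differed by 0.69 in BF (SE 0.30, adjusted p = 0.0971) and by -0.82 in IMF (SE 0.30, adjusted p = 0.381). The BF difference was 0.29 without BF-2d replicate 3, and 1.09 and then called without BF-2d replicate 2. The interaction over that interval was -1.51 (SE 0.42, adjusted p = 0.0231), short of the threshold in a comparison with 3.06% of tested genes called. It was -1.11 without BF-2d replicate 3 and was called without BF-2d replicate 2 or BF-4d replicate 3.

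Between depots PENK differed by 0.86 on day 0 (SE 0.30, adjusted p = 0.0611), and on day 2 IMF cells held more, by 1.19 (SE 0.30, adjusted p = 0.00645). The latter was 0.78 without BF-2d replicate 3 and then short of the threshold (adjusted p = 0.0301). On day 0 it was 2.30 with a pseudocount of 0.1, and then called (adjusted p = 0.000679). On day 4 the difference was -0.32 (SE 0.30, adjusted p = 0.405). When only the compared groups were fitted, the rise of PENK from IMF-0d to IMF-2d kept its call, whereas those of STC1 and PENK from BF-0d to BF-2d, that of STC1 from BF-2d to BF-4d, both differences on day 2 and the interaction of STC1 did not, at adjusted p-values between 0.0303 and 0.25. The comparisons with day 8 are descriptions: PENK differed by -1.44 from BF-4d to BF-8d, by 4.09 from IMF-4d to IMF-8d and by 5.21 between the depots on day 8, the value that had singled it out.

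**Figure D2:**
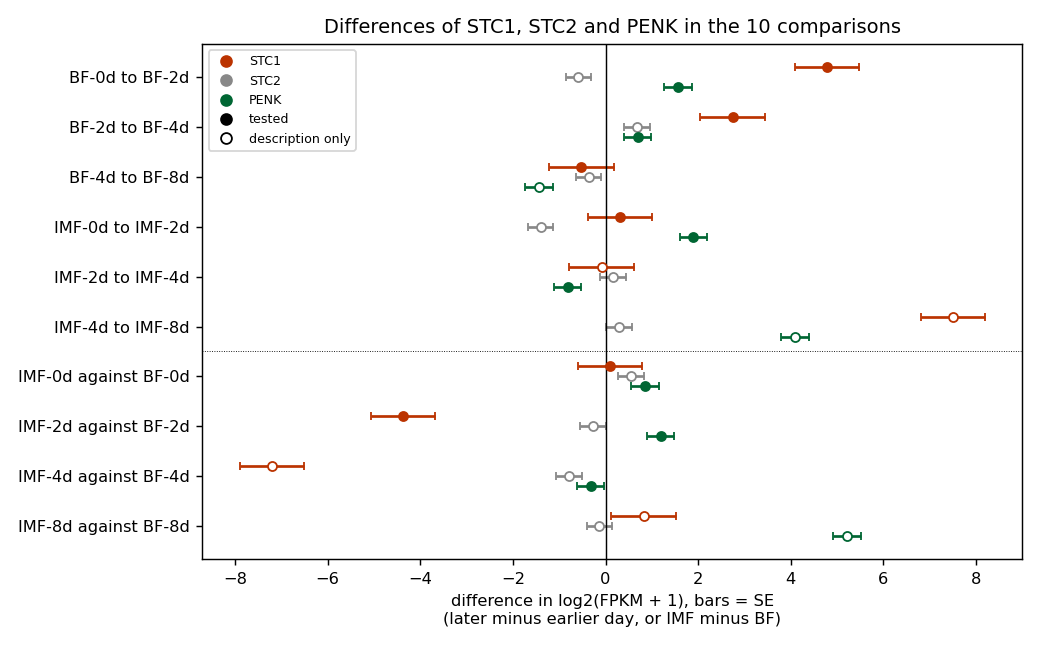
Differences of STC1, STC2 and PENK in the 10 pairwise comparisons, as log2(FPKM + 1) with bars of 1 SE. Filled points were tested and open points are descriptions. STC1 lies farthest from 0 in IMF-4d to IMF-8d (7.50) and IMF-4d against BF-4d (-7.20), PENK in IMF-8d against BF-8d (5.21), and STC2 stays between -1.40 and 0.68.

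STC1 and PENK were both at their highest group mean in IMF-8d, a group whose values had chosen both genes, and both had their highest BF mean in BF-4d, whereas other groups held one at a much higher level than the other. BF-8d cells held STC1 at 98.5 to 159 FPKM with PENK at 0.85 to 1.32 FPKM, and IMF-2d cells held PENK at 5.23 to 8.35 FPKM with STC1 under 0.9 FPKM. Their correlation over libraries, of log2(FPKM + 1), was 0.48 over all 24, 0.72 over the 12 of BF and 0.95 over the 12 of IMF. STC2 correlated with PENK at -0.33. These coefficients describe points that fall into 8 groups and share the libraries' composition, and those of STC1 with PENK that include IMF-8d follow in part from the choice of both genes by that group.

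**Figure D3:**
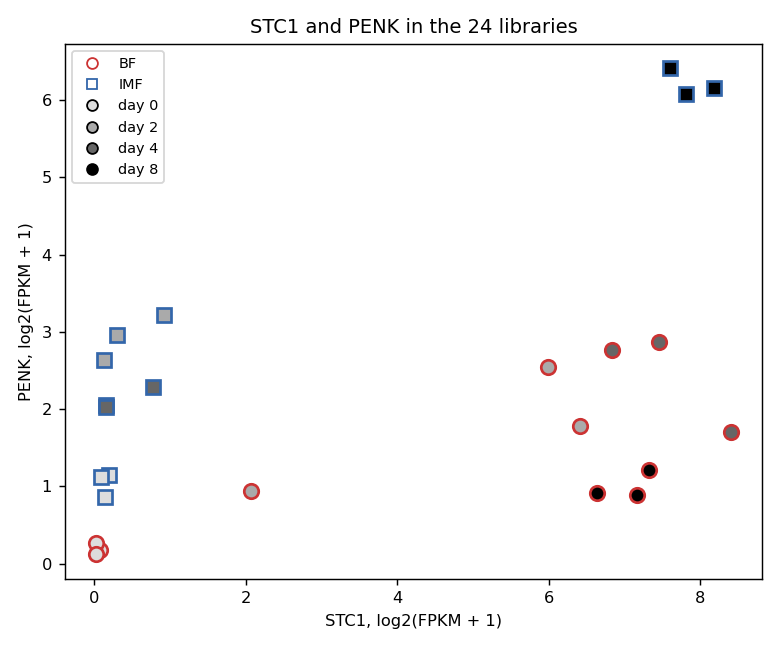
PENK against STC1 in the 24 libraries, both as log2(FPKM + 1), with circles for BF, squares for IMF and darker fills for later days. The 3 IMF-8d libraries lie apart at the upper right, BF-4d and BF-8d lie to the right at low or moderate PENK, and BF-2d replicate 3 lies between the day 0 libraries and the other BF-2d libraries.

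The genes most like each member were taken by Pearson correlation of log2(FPKM + 1) over the 24 libraries, among 7554 other genes with a symbol and a mean of at least 5 FPKM in a group. Nearest to STC1 were MXI1, a MAX-binding repressor (r = 0.991), MMD (r = 0.988), the receptor kinase GRK5 (r = 0.983) and the cytokine IL11 (r = 0.983), and 182 candidates exceeded 0.9. IL11 shared the timing at a higher level, with group means of 1.73, 571, 1994 and 1314 FPKM over the 4 days in BF and of 1.54, 8.12, 3.96 and 828 FPKM in IMF. For PENK they were RERG, a small GTPase (r = 0.924), the glycosyltransferase GALNT15 (r = 0.924), TEX26 (r = 0.916) and the secreted olfactomedin OLFM1 (r = 0.914), and 7 candidates exceeded 0.9. OLFM1 had a mean of 16 FPKM in IMF-8d and of 1.32 to 2.19 FPKM in the other groups. No candidate reached 0.9 with STC2, whose nearest included PPP2CB (r = 0.771), IER5 (r = 0.748) and SRP9 (r = 0.736). With ranks in place of values, 1, 0 and 1 of the 4 nearest genes of STC1, STC2 and PENK were retained.

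Genes that act with the members, or are known to be driven by the signals that drive them, were taken from 8 lists of 98 genes, of which 80 were tested. Over all lists, 24 of the 80 rose and 8 fell from BF-0d to BF-2d, where 2.71% of all tested genes rose and 3.87% fell. When only those 2 groups were fitted, 8 of the 80 and 237 in place of 1063 of all tested genes were called there. From IMF-0d to IMF-2d 5 rose and 1 fell, against 0.328% and 0.459% of all tested genes. Without IMF-2d replicate 2 only 1 of those 6 was called, and 69 in place of 127 of all tested genes. From IMF-2d to IMF-4d limma called 0 of the 80, 10 were at an unadjusted p under 0.05, and a fit of only those 2 groups called 1. From IMF-4d to IMF-8d 23 rose and 9 fell, against 4.16% and 3.08%. The members of a list share libraries and were chosen with earlier results in view, so these counts are descriptions.

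Among opioid precursors and receptors, PNOC, which encodes the precursor of nociceptin, showed the same high group as PENK. PNOC stood at 21.8, 16.4 and 14.8 FPKM in IMF-8d, and its highest value in any other library was 2.16 FPKM, in BF-2d replicate 2. It was listed at 0 in the BF-0d libraries and lay between 0.0979 and 0.288 FPKM in BF-8d. The groups of day 8 did not overlap. PNOC rose by 3.58 from IMF-4d to IMF-8d (SE 0.28, adjusted p = 1.01e-08) and exceeded BF-8d by 3.99 in IMF-8d (SE 0.28, adjusted p = 1.64e-09). The change from day 4 to day 8 differed between depots by 4.00 (SE 0.39, adjusted p = 9.15e-07, 6.39% of tested genes called). PNOC rose by 1.0 over the first interval in BF as well (SE 0.28, adjusted p = 0.00887), or by 1.44 without BF-2d replicate 3. In that case PNOC was also lower in IMF on day 2, by -1.17 (adjusted p = 0.000496), where it had not been called with all libraries (-0.73).

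Of the classical opioid receptors, OPRM1 and OPRK1 were at the lower end of the scale. OPRD1, another of them, was not matched by symbol and is not analysed here, nor are POMC and OGFR of the same list. OPRM1 was listed at 0 in 23 libraries and OPRK1 in 22, and neither exceeded 0.0262 FPKM. OPRL1, the nociceptin receptor, reached at most 0.0955 FPKM, and PDYN, the prodynorphin gene, at most 0.375 FPKM, so that none of these 4 was tested. ACKR3, an atypical chemokine receptor that also binds enkephalins, was the only tested receptor of the list, and it was abundant, at 221 to 736 FPKM in BF-2d, 467 to 541 FPKM in IMF-8d and, at the highest group mean, 542 to 693 FPKM in BF-8d, where PENK was low. It rose by 2.38 from BF-0d to BF-2d (SE 0.30, adjusted p = 6.66e-06) and by 1.80 from IMF-4d to IMF-8d (SE 0.30, adjusted p = 0.000106). From day 0 to day 2 its change differed between depots by -2.17 (SE 0.42, adjusted p = 0.00284). Without BF-2d replicate 3 the BF rise was 2.93 and the difference between depots -2.72.

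Of the 9 tested genes of prohormone processing, 3 rose and 1 fell from IMF-4d to IMF-8d, where 4.16% of all tested genes rose and 3.08% fell. On day 8, 3 were higher and 1 lower in IMF, where 4.31% of all tested genes were higher and 2.65% lower. In IMF, 0 of the 9 were higher and 2 lower on day 2, and 2 higher and 6 lower on day 4. The shares of all tested genes called on those days were 4.74% and 11.3%. CTSL, the cathepsin that cuts proenkephalin in secretory granules, stood at 274, 234 and 237 FPKM in IMF-8d and at 91.3, 92.9 and 103 FPKM in BF-8d, and the groups did not overlap. It was higher in IMF by 1.37 (SE 0.23, adjusted p = 9.95e-05), and lower by -2.01 on day 2 (SE 0.23, adjusted p = 2.93e-06). The day 2 call was not kept with only the compared groups fitted. CTSL also rose by 2.23 from BF-0d to BF-2d, by 1.17 from IMF-0d to IMF-2d (1.03 and not called without IMF-2d replicate 2) and by 2.80 from IMF-4d to IMF-8d (SE 0.23, adjusted p = 1.69e-08). Without BF-2d replicate 3 CTSL gave 2.56 from BF-0d to BF-2d and -2.34 on day 2.

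PCSK1, the prohormone convertase of the regulated secretory pathway, was high in BF-4d, BF-8d and IMF-8d, the groups in which STC1 was high. It was listed at 0 in the day 0 libraries of both depots, reached 11.7, 23.8 and 8.99 FPKM in BF-4d and 11.3, 19.6 and 16.2 FPKM in BF-8d, and was at most 0.038 FPKM in IMF-2d and IMF-4d. In IMF-8d it stood at 4.71, 5.92 and 3.79 FPKM, below every BF-8d library. PCSK1 rose by 3.25 from BF-2d to BF-4d (SE 0.27, adjusted p = 2.48e-07) and by 2.52 from IMF-4d to IMF-8d (SE 0.27, adjusted p = 7.84e-07), and was lower in IMF on day 8 by -1.51 (SE 0.27, adjusted p = 0.000234). The rise from BF-2d to BF-4d was 2.94 without BF-2d replicate 3, and its call was not kept with only the compared groups fitted. PCSK2, the other neuroendocrine convertase, was listed at 0 in all 24 libraries. CPE, the carboxypeptidase that trims the basic residues left by those cuts, had a mean of 18.4 FPKM in IMF-4d and 7.29 FPKM in IMF-8d, and differed by -1.22 over that interval (SE 0.25, adjusted p = 0.000937), yet was higher in IMF than in BF on day 8, by 1.27 (SE 0.25, adjusted p = 0.000617). FURIN, the convertase found in most cells, was lower in IMF on day 4 by -2.46 (SE 0.16, adjusted p = 5.55e-10).

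Of 6 tested secretory granule genes, SCG2 rose from IMF-4d to IMF-8d by 2.35 (SE 0.30, adjusted p = 5.64e-06), and SCG5 rose by 1.51 (SE 0.16, adjusted p = 6.21e-07). Both stayed low, with means of 4.84 and 3.41 FPKM in IMF-8d. SCG5, the chaperone of PCSK2, and PCSK1N, an inhibitor of PCSK1, were higher in IMF on day 8, the former by 1.17 (SE 0.16, adjusted p = 1.25e-05) and the latter by 1.38 (SE 0.31, adjusted p = 0.00186).

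Among the 6 peptidases that degrade enkephalins, ANPEP, aminopeptidase N, stood at 107, 127 and 138 FPKM in IMF-8d against 51.9, 45 and 50.1 FPKM in BF-8d. It was higher in IMF on day 8 by 1.32 (SE 0.24, adjusted p = 0.000239). ACE rose by 3.10 from IMF-4d to IMF-8d (SE 0.31, adjusted p = 2.94e-07), to 11.9, 12.3 and 13.7 FPKM. MME, the neprilysin gene also called enkephalinase, did not exceed 0.478 FPKM in any library and was listed at 0 in the IMF-8d libraries. Of the 6, ANPEP and ACE had their highest group mean in IMF-8d, where PENK was highest, and the other 4 had it elsewhere. By limma 1 of the 6, ACE, rose from IMF-4d to IMF-8d, where 4.16% of all tested genes rose.

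**Figure D4:**
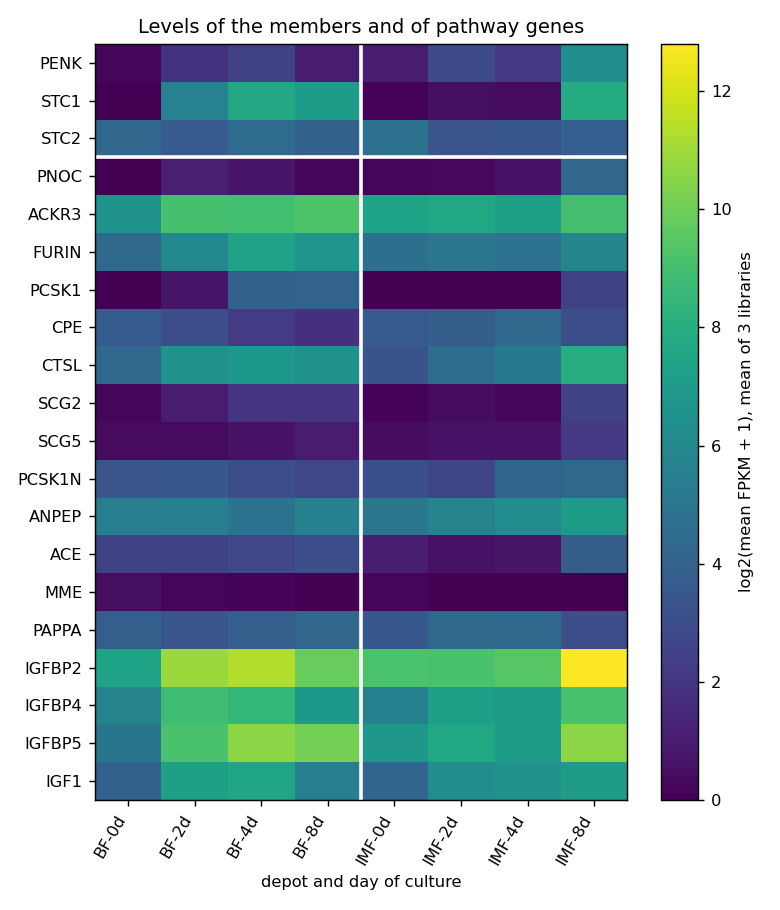
Group means as log2(mean FPKM + 1) of the 3 members (above the white line) and of genes of opioid signalling, prohormone processing, enkephalin degradation and the pappalysin pathway (below it), by depot and day. PENK and PNOC have their highest mean in IMF-8d (73.7 and 17.7 FPKM), PCSK1 is highest in BF-8d (15.7 FPKM), and IGFBP2 is highest in IMF-8d (7117 FPKM).

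The partners of the stanniocalcins are the pappalysins and the binding proteins these cut. PAPPA, the protease that both stanniocalcins block, had group means between 7.47 and 20.8 FPKM and passed the test in none of the 10 pairwise comparisons by limma. Its smallest adjusted p was 0.0231, on day 2, at a difference of 1.39 (SE 0.43). Its BF-2d libraries spread widely, at 9.33, 1.92 and 17.9 FPKM. Without BF-2d replicate 3, the highest of them, PAPPA was called higher in IMF on day 2, by 1.99 (adjusted p = 0.000537), and fell from BF-0d to BF-2d by 1.39 (adjusted p = 0.00752). PAPPA2 never exceeded 0.137 FPKM and was not tested. From BF-0d to BF-2d, IGFBP4, a binding protein cut by PAPPA, rose by 2.88 (SE 0.39, adjusted p = 1.49e-05), and IGFBP5, another, by 3.62 (SE 0.50, adjusted p = 2.31e-05). From IMF-4d to IMF-8d the rise was 2.12 for IGFBP4 (SE 0.39, adjusted p = 0.000279) and 3.58 for IGFBP5 (SE 0.50, adjusted p = 1.94e-05). They thus rose over the same 2 intervals in which STC1 was high at the end and nearly absent at the start.

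IGFBP5 stood at 889, 716 and 87.6 FPKM in BF-2d and at 1256, 1785 and 1514 FPKM in IMF-8d, against 28.2 to 33.3 FPKM in BF-0d and 122 to 126 FPKM in IMF-4d. As for STC1, BF-2d replicate 3 was the lowest of its group, and without it IGFBP5 rose by 4.68 and IGFBP4 by 3.49 from BF-0d to BF-2d. IGFBP4 fell by 1.63 from BF-4d to BF-8d (SE 0.39, adjusted p = 0.00593), a call not kept with only the compared groups fitted. On day 8 IGFBP4 was higher in IMF by 2.32 (SE 0.39, adjusted p = 0.000111). IGFBP2 was higher in IMF on day 8 by 2.95 (SE 0.43, adjusted p = 2.44e-05). IGF1, the ligand, rose by 3.22 from BF-0d to BF-2d (SE 0.43, adjusted p = 1.33e-05), or 3.42 without that library, and by 2.01 from IMF-0d to IMF-2d (SE 0.43, adjusted p = 0.00574), where it gave 1.65 and was not called without IMF-2d replicate 2 (adjusted p = 0.0463). Of the 9 tested genes of this list, 4 rose and 0 fell by limma over the first interval in BF (0 of those with a negative difference were at an unadjusted p under 0.05), and leaving out BF-2d replicate 3 gave 4 and 1. Of all tested genes, 2.71% rose and 3.87% fell over that interval.

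Genes of the cAMP response, the pathway of the PENK gene, were compared between BF-0d and BF-2d, where 2.71% of all tested genes rose and 3.87% fell. Of the 14 tested, 10 rose, or 11 when BF-2d replicate 3 was left out. By limma 0 of the 14 fell, and 1 had a negative difference at an unadjusted p under 0.05. The median difference was 2.30 beside -0.04 over all tested genes. RGS2, a brake on G protein signalling, rose by 5.37 (SE 0.62, adjusted p = 3.8e-06) and the kinase gene SIK1 by 4.10 (SE 0.54, adjusted p = 1.55e-05), and without that library by 6.47 and 5.04. From IMF-0d to IMF-2d, where 0.328% of all tested genes rose, 3 of 14 rose, PDE4B by 2.56, the nuclear receptor NR4A1 by 2.39 and PER1 by 1.10. IMF-2d replicate 2 held PDE4B at 34.4 FPKM against 19.7 and 14.1, and NR4A1 at 55 FPKM against 20.3 and 13.3. Without it PDE4B alone kept its call (2.22, adjusted p = 0.00119), while NR4A1 gave 1.83 (adjusted p = 0.0284) and PER1 0.89, under the fold threshold. From IMF-4d to IMF-8d, where 4.16% of all tested genes rose and 3.08% fell, 7 rose and 1 fell, with RGS2 at 5.30, SIK1 at 4.91 and NR4A2 at 4.54, while FOS, named here because it was the one to fall, fell by 1.21. SIK1 stood at 72.8, 68.1 and 9.17 FPKM in BF-2d, 1.90, 7.66 and 1.01 in IMF-2d, and 49.0, 54.9 and 52.4 in IMF-8d. SIK1 was lower in IMF on day 2, by -3.33 (SE 0.54, adjusted p = 0.000228), or -4.27 without BF-2d replicate 3. With only the compared groups fitted, none of the listed genes was called on day 2. PENK was higher in IMF on day 2 by 1.19, or by 0.78 and not called without BF-2d replicate 3. The part of the cAMP response in the differences of PENK was not tested. In IMF, 0 of the 14 cAMP genes were higher and 5 lower on day 2, and 0 higher and 9 lower on day 4. The shares of all tested genes called on those days were 4.74% and 11.3%. On day 8, when 4.31% of all tested genes were higher in IMF, 2 of 14 were, RGS2 by 2.98 (SE 0.62, adjusted p = 0.000995) and NR4A1 by 1.96 (SE 0.47, adjusted p = 0.00285). CREB1, which encodes the factor that binds the cAMP response element, differed by -0.42 to 0.61 in the 10 comparisons and was called in none, with a smallest adjusted p of 0.0242 from BF-2d to BF-4d.

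Genes of the hypoxia response, the pathway of STC1, rose in 4 of 15 cases and fell in 1 between BF-0d and BF-2d, or 5 and 1 when BF-2d replicate 3 was left out, in a comparison in which 2.71% of all tested genes rose and 3.87% fell. From IMF-4d to IMF-8d 3 rose and 1 fell, where those shares were 4.16% and 3.08%. VEGFA, the vascular growth factor, stood at 842, 749 and 842 FPKM in BF-8d and at 185, 168 and 173 FPKM in IMF-8d, where STC1 had been higher in IMF. It was lower in IMF on day 8 by -2.20 (SE 0.35, adjusted p = 7.48e-05), as were EGLN3, an oxygen sensor, by -1.72 (SE 0.33, adjusted p = 0.000441) and ANGPTL4 by -3.77 (SE 0.27, adjusted p = 2.6e-09). In all, 5 of 15 were lower and 1 higher in IMF on that day, when 2.65% of all tested genes were lower and 4.31% higher, and the median of the 15 was -0.48. HIF1A, the oxygen-regulated factor, differed by -0.66 to 0.70 in the 10 comparisons and was called in none, with a smallest adjusted p of 0.019 on day 4. The part of the hypoxia response in the differences of STC1 was not tested.

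The endoplasmic reticulum stress and ATF4 response, the pathway of STC2, fell in 7 of 19 cases and rose in 1 between BF-0d and BF-2d, or 8 and 1 when BF-2d replicate 3 was left out. Of all tested genes, 3.87% fell and 2.71% rose there. The median of the 19 was -1.08 beside -0.04 over all tested genes. The genes that fell included DDIT3, the stress factor CHOP, by 1.75, PSAT1, of serine synthesis, by 1.63 and SLC7A11, the cystine transporter, by 1.61, and without that library by 2.10, 2.12 and 1.82. The 1 that rose, CEBPB, is also an early factor of adipogenesis. From IMF-0d to IMF-2d, where STC2 went down most, 1 of 19, the sestrin gene SESN2, fell and 0 rose by limma. Of all tested genes, 0.459% fell and 0.328% rose there. At an unadjusted p under 0.05, 7 of the 19 had a negative difference and 1 a positive one, and the median of the 19 was -0.46. The call of SESN2 was lost in 15 of the 24 fits that left out 1 library. From IMF-4d to IMF-8d 6 fell and 2 rose, where 3.08% of all tested genes fell and 4.16% rose. ATF4 itself was not matched by symbol and is not analysed here, and the part of this response in the differences of STC2 was not tested.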

How the data were processed

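Per the labels and the study's methods, the authors aligned paired polyadenylated RNA reads with HISAT2 to Sscrofa11.1 and computed FPKM per gene with StringTie 1.3.4d. The deposited FPKM values carry no read counts, low values gave no common step between libraries from which depth could be read, and the study's own read totals were not used. Dividing by length and by mapped fragments removes library size, and a few very abundant genes can lower the others.

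Genes with a summed FPKM over 1 (16135) were fitted as log2(FPKM + 1) in limma 3.58.1 (R 4.3.3), with 1 mean per group over all 24 libraries and eBayes with trend and robust. The procedure was tested on simulated data. The authors compared groups with DESeq2 1.6.3, a count model that does not suit FPKM. Symbols came from a table of Ensembl IDs (14815 of 21271 matched), and loci and sequences from RefSeq. Alternatives were a pseudocount of 0.1, no filter and a stricter filter, other scalings, a fit of only the compared groups, a replicate block and each library left out.

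Named genes were the members, up to 4 called genes of each list and comparison by size, a fixed set of processing, binding protein and regulator genes, the 4 most alike genes and the markers, and 1 of the most alike genes is not reported here. The members and the lists were chosen with earlier results of these data known.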

Additional observations from a re-analysis of the deposited data

Results flagged for a closer look

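The change of STC1 from day 0 to day 2 differed between the depots, with an interaction of -4.47 (SE 0.98, limma adjusted p = 0.00718), IMF change less BF change. Each of the 3 BF-2d libraries lay above each BF-0d library, and the 3 IMF-2d libraries were under 1 FPKM. The call was not kept with a replicate block (adjusted p = 0.0103), with no filter (0.0122), with only the compared groups fitted (0.0422) or when any of 13 of the 24 libraries was left out, and leaving out BF-2d replicate 3, the lowest of its group at 3.19 FPKM, made the difference larger, at -5.85.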

How the results depend on the processing

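No counting interval was computed for levels under 1 FPKM, and 3 libraries per group limit each comparison. No scaling moved the median of all genes by over 0.1 on the log2 scale, and no result changed direction past the threshold. Of the recomputed values of all results, 1181 kept their side of the threshold or stayed within the spread, 49 lost a call, 4 gained one and 14 moved by more than the spread; the cause was not tested.

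With only the compared groups fitted, adjusted p-values were 0.0303 for STC1 from BF-0d to BF-2d (4.78), 0.25 over the next interval (2.74), 0.0684 on day 2 between depots (-4.37) and 0.0422 for its interaction from day 0 to 2 (-4.47). For PENK they were 0.0352 over the first interval in BF (1.57) and 0.121 on day 2 (1.19). Fewer libraries then estimate the spread, and the spread differed between groups. The SD of log2(FPKM + 1) of STC1 was 2.39 in BF-2d and 0.027 in BF-0d. The cause of the lost calls was not tested. With no filter, STC1 from BF-2d to BF-4d (2.74, adjusted p = 0.0144), its interaction (-4.47, 0.0122) and PENK on day 2 (1.19, 0.0126) missed the threshold. PENK on day 2 was 1.04 (0.0246) with median ratio scaling and 0.996 (0.0283) with quantile normalization. A pseudocount of 0.1 gave STC1 2.86 from BF-2d to BF-4d (0.0178), 9.45 from IMF-4d to IMF-8d, -9.15 on day 4 and 9.97 for the interaction from day 4 to 8. It gave PENK -2.02 from BF-4d to BF-8d, 2.30 on day 0 (0.000679, then called), 6.06 on day 8 and 6.43 for the interaction from day 4 to 8.

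Same-numbered libraries of different groups showed no common deviation in the median (84 pairs, correlations of -0.454 to 0.457, median 0.001, 9 over 0.1). An animal effect that is small or limited to some groups could go unseen here, so whether a number stands for an animal was not settled. With a replicate block, STC1 gave 2.74 from BF-2d to BF-4d (adjusted p = 0.0111) and -4.47 for the interaction from day 0 to 2 (0.0103), and no other call of the members changed.

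Leaving out single libraries, STC1 ranged from 1.37 to 3.54 from BF-2d to BF-4d and kept its call only without BF-2d replicates 1, 2 or 3, BF-4d replicate 1, BF-8d replicates 1 or 2 or IMF-8d replicate 2, from -5.85 to -3.67 for the interaction from day 0 to 2 (call lost without any BF-0d, IMF-0d or IMF-2d library, BF-2d replicates 1 or 2, IMF-4d replicate 1 or IMF-8d replicate 1), and from -3.63 to -1.45 for that from day 2 to 4. PENK ranged from 0.78 to 1.58 on day 2 (call lost without BF-2d replicates 1 or 3 or any IMF-2d library), from 0.29 to 1.09 from BF-2d to BF-4d (called without BF-2d replicate 2), from -1.81 to -1.22 from BF-4d to BF-8d, from -1.91 to -1.11 for the interaction from day 2 to 4 (called in 2 fits) and from 5.32 to 5.90 for that from day 4 to 8. STC2 ranged from 0.20 to 0.94 from BF-2d to BF-4d, from -0.62 to 0.12 from BF-4d to BF-8d, from -1.04 to -0.31 on day 4, and from -0.77 to -0.0385 and 0.17 to 0.91 for the later interactions, each extreme nearest to or past 0 being without BF-4d replicate 3.

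Leaving out single libraries, all tested genes called ranged from 698 to 1615 from BF-0d to BF-2d, 445 to 1287 on day 2 and 193 to 1183 for the first interaction, each highest without BF-2d replicate 3, and from 69 to 166 from IMF-0d to IMF-2d. Of the 80 listed genes, the 6 called there ranged from 1 to 10, and the 32 called from BF-0d to BF-2d became 8 with only the compared groups fitted, the 8 and 11 of the first 2 interactions became 2 and 1, and the 9, 6 and 18 of the later BF intervals and of day 2 became 0, with 17, 27 and 35 at an unadjusted p under 0.05 in limma. The 6 from BF-4d to BF-8d became 3 with no filter. Over all tested genes, that fit gave 237 in place of 1063 from BF-0d to BF-2d, 0 of 541 (2981 at an unadjusted p under 0.05) and 4 of 472 in the later BF intervals, 107 in place of 764 on day 2, and 132 and 33 in place of 395 and 493 for the first 2 interactions. A pseudocount of 0.1 gave 2020, 970 and 916 in the BF intervals, 2 in place of 6 from IMF-2d to IMF-4d, 2103 in place of 1169 from IMF-4d to IMF-8d, and 759, 1474, 3194 and 2154 in place of 417, 764, 1826 and 1123 between depots on the 4 days.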
